A study of Mus musculus with 6 samples.

Results

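Cholesterol and fatty acids are made in the cytosol and endoplasmic reticulum from acetyl-CoA, and the genes of both routes share regulators. The expression of 34 genes of these routes was compared between mouse cDNT kept with and without IL-10. The genes were taken from a list of names, and all 34 were found among the 29393 genes of the count table. The list was chosen with earlier results of these data known, so the shares of these genes given below are a description only. They comprised 7 genes of the mevalonate pathway, 10 genes of the steps from squalene to cholesterol, 4 regulators, 4 genes of lipid transfer and efflux, 8 genes of fatty acid synthesis and desaturation, and Lpin1 of glycerolipid synthesis.

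The cDNT are CD4-CD8- T cells that were converted in culture from C57BL/6 CD4+CD25- T cells in the presence of IL-2 and mature dendritic cells, and were purified by flow cytometry. The labels give the tissue as spleen and the mice as adult. The W/ IL-10 group received 50 ng/ml IL-10 for 24 h and the W/O IL-10 group did not, and each group had 3 libraries. The study's methods name anti-CD3 and anti-CD28 antibodies together with IL-10, whereas the label of the W/O IL-10 group says no stimulation. Whether these controls received the antibodies is not stated in the sources used here, so that IL-10 and antibody stimulation cannot be told apart on the labels alone. No source used here says whether the 3 libraries of a group came from separate cultures or animals, and the p-values then measure only the spread between libraries, which may be technical.

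Sterol synthesis starts from acetyl-CoA with the enzymes of Acat2 and Hmgcs1, passes through mevalonate and isoprenoid intermediates to squalene, and ends after ring closure and demethylation of lanosterol in cholesterol. SREBP-2 (Srebf2) drives the transcription of this pathway when membrane sterol is low, SREBP-1 (Srebf1) drives that of fatty acid synthesis, and INSIG1 holds both precursors in the endoplasmic reticulum. LXR, of which Nr1h2 encodes the beta form, is activated by oxysterols and induces the efflux transporters ABCA1 and ABCG1. Activated T cells are known to raise lipid synthesis to build membrane.

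Total counts lay between 21619420 and 23967088 per library, and a floor of 3 counts corresponded to 0.123 to 0.146 CPM, the counts scaled to a common library size, and covers counting error only. The T cell markers were present, with a sum over 7 genes of 1550 to 1820 CPM W/O IL-10 and 2010 to 2220 CPM W/ IL-10. None of the 7 passed the test described below. Cd3e, Cd3d and Cd28 overlapped between groups, whereas Cd3g, Cd247, Cd2 and Lck were above their controls without overlap. Cd4 was at 0.351 to 1.55 CPM, whereas Cd8a, which CD4-CD8- cells should lack, was at 95.8 to 119.1 CPM W/O IL-10 and 138.6 to 168.6 CPM W/ IL-10, and Cd8a and Cd8b1 passed the test. The 9 macrophage markers summed to 27.6 to 35.6 CPM W/O IL-10 and 33.4 to 36.7 CPM W/ IL-10, mostly from Cd68, and none of the 5 that were tested passed. Of these tested genes, Itgam and Cd68 were above their controls without overlap and Cd14 was below its controls. Their log2 fold changes were 1.00, 0.32 and -0.56 (adjusted p = 0.111, 0.159 and 0.287, edgeR), and Adgre1 and Lyz2 overlapped between groups. Csf1r had at most 8 counts in any library, Fcgr1 at most 7, C1qa at most 6 and Mertk at most 2. The 9 dendritic cell markers summed to 41.9 to 58.7 CPM and 53.8 to 62.2 CPM, and of the 5 tested genes Itgax alone passed, higher W/ IL-10. Xcr1 was also above its controls without overlap, whereas Ccl22, Fscn1 and Zbtb46 were below theirs (log2 fold changes -2.66, -1.71 and -0.44, adjusted p = 0.102, 0.105 and 0.212, edgeR). Clec9a and Siglech had no more than 1 count. The 5 B cell markers summed to 62.3 to 153 CPM and 59.4 to 106 CPM, and the 4 NK cell markers to 559 to 591 CPM and 403 to 431 CPM. Most of the NK sum came from Eomes (means of 517.5 CPM W/O IL-10 and 364.4 CPM W/ IL-10). The means of Klrb1c, Klre1 and Ncr1 were 32.9, 15.5 and 6.53 CPM W/O IL-10 and 27.4, 20.7 and 2.95 CPM W/ IL-10. Whether the Eomes counts came from NK cells or from the cDNT was not tested, so the sum is not a measure of NK cells. Ncr1 and Eomes passed and were lower, whereas Klre1 was above its controls without overlap (log2 fold change 0.41, adjusted p = 0.258, edgeR). Klrb1c overlapped between groups. In bulk RNA, fewer cells of a type and less RNA per cell cannot be told apart. The part of these differences in the results on lipid genes was not tested.

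The 250 bases before the RefSeq start (GRCm38.p6) of 5 genes are printed from 5′ to 3′ on the strand of the gene. Pltp, Elovl6 and Cyp51 passed the test described below, whereas Idi1 and Hmgcs1 did not (adjusted p = 0.0963 and 0.295, edgeR). Sc5d, with an adjusted p of 0.0867 (edgeR), is not printed. Whether these windows control the genes was not tested. The windows are those of Pltp at chr2:164857709-164857958 on the minus strand, Elovl6 at chr3:129532136-129532385 on the plus strand, Cyp51 at chr5:4104698-4104947 on the minus strand, Idi1 at chr13:8885356-8885605 on the plus strand and Hmgcs1 at chr13:119690101-119690350 on the plus strand. Capitals mark CCAAT, read on either strand and so also as ATTGG, and the sterol regulatory element core TCACNCCAC.
Pltp: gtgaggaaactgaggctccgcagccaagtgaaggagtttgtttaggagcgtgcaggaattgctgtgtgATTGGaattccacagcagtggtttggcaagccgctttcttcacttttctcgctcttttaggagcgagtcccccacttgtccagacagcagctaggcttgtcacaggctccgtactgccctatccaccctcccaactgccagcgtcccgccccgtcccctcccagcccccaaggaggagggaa
Elovl6: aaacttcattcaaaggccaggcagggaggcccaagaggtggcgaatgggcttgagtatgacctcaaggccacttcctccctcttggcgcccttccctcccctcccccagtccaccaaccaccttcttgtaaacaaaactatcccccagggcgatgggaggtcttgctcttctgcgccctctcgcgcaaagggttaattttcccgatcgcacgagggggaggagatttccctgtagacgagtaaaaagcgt
Cyp51: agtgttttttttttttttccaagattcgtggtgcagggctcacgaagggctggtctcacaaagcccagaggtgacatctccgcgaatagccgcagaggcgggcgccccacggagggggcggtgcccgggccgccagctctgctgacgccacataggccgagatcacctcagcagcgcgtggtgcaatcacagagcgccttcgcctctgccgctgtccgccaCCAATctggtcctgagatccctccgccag
Idi1: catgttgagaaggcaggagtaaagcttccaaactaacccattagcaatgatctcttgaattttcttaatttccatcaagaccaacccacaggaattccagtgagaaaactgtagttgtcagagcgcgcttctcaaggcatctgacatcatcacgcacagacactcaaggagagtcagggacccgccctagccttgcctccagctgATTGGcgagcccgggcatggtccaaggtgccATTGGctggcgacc
Hmgcs1: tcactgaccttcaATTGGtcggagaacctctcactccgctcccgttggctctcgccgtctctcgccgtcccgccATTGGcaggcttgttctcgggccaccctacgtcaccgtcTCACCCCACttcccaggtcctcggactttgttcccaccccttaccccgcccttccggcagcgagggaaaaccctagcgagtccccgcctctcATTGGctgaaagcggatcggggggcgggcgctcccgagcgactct

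RefSeq windows were found for 26 of the 34 genes, 31 windows in all. CCAAT, the site of NF-Y, which works beside SREBP on sterol genes, was in 19 of these 31 windows (61.3%) and in 33.8% of all 32851 windows. The 18 genes that carried it included Cyp51, Idi1, Hmgcs1, Sc5d, Msmo1 and Pltp, but not Elovl6. TCACNCCAC was in the Hmgcs1 window alone among the 26 genes, as TCACCCCAC with its first base 137 bases before the start, and in 1.05% of all windows. The E-box CACGTG was in 5 of the 31 windows (16.1%), those of Abca1, Dhcr7, Hsd17b7, Insig1 and Sc5d, against 6.02% of all windows. TTCNNNGAA, the core of a STAT site and so of the factor that carries the IL-10 signal, was in 1 of 31 windows (Ebp, 3.23%) against 7.02%. All searches covered both strands. A match is a description of the letters only.

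The 3 genes that passed the test, at an adjusted p under 0.05 over all genes (edgeR quasi-likelihood test with Benjamini-Hochberg adjustment, used for every adjusted p below), were Pltp, Elovl6 and Cyp51, and all were higher W/ IL-10. These were 3 of 34 (8.82%), where 1.21% of the 14916 tested genes were higher by this test. No gene of the 34 was lower by the test, against 0.979% of all tested genes, and 2.19% of all tested genes passed in either direction. Pltp and Elovl6 also differed by 1.5-fold or more, and by that rule 0.778% of all genes were higher and 0.677% lower. All 34 genes had enough counts to be tested.

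The values W/ and W/O IL-10 did not overlap for 17 of the 34 genes, against 22.6% of all tested genes. Of these, 15 were above the controls (44.1%, against 11.3% of all tested genes) and 2, Fads1 and Lpin1, were below them (5.88%, against 11.2%). At an unadjusted p under 0.05, 12 genes were higher and 1 was lower, and the shares over all genes were 7.58% and 7.17%. The log2 fold change was above 0 for 25 of the 34 genes (73.5%, against 51.2%). Its median was 0.14 over the 34 genes and 0.01 over all tested genes, which is a small difference between groups for most of the 34. Without W/O IL-10 replicate 1, which departed furthest from the other libraries in genes of low GC content, it was 0.13.

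**Figure D1:**
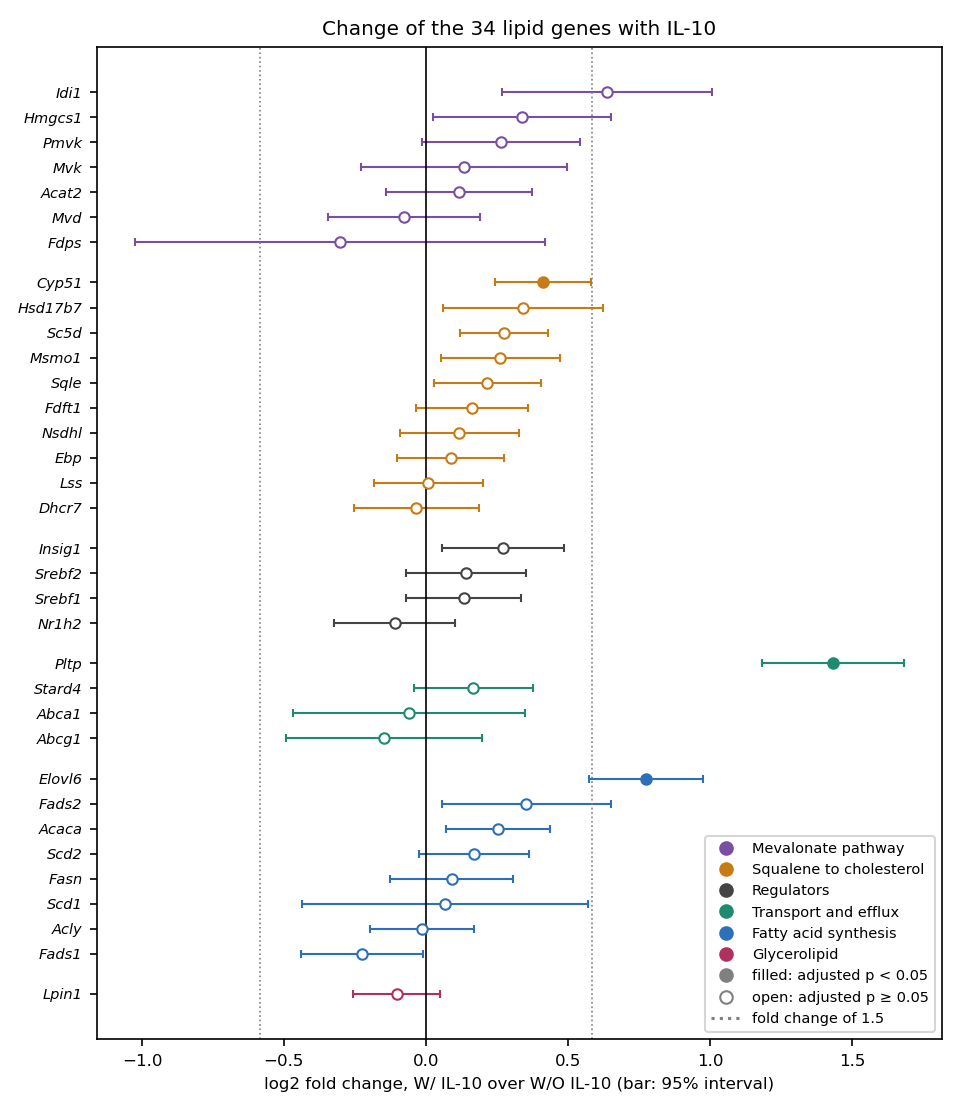
Log2 fold change (W/ IL-10 over W/O IL-10) of each of the 34 genes with its 95% interval, grouped by pathway step. Filled points have an adjusted p under 0.05 and the dotted lines mark a fold change of 1.5 in each direction; Pltp, Elovl6 and Cyp51 are filled, and most other genes lie within the dotted lines and right of 0.

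The shift of the 34 genes as a whole was also read library by library, from the same values and so not as further support. The median deviation of the 34 genes from their own mean on the log2 CPM scale was -0.10, -0.05 and -0.10 in the W/O IL-10 libraries and 0.04, 0.11 and 0.12 in the W/ IL-10 libraries, so that the groups did not overlap. Over all tested genes the same measure was between 0.00 and 0.03 in every library. By pathway step, the mevalonate, squalene to cholesterol and fatty acid genes were also separate and higher W/ IL-10. The regulators overlapped (0.003 in W/O IL-10 replicate 2, -0.08 in W/ IL-10 replicate 1). So did transfer and efflux (0.04 in W/O IL-10 replicate 2, -0.03 in W/ IL-10 replicate 2), and Lpin1 was lower W/ IL-10.

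Pltp encodes phospholipid transfer protein, a secreted protein that moves phospholipid between lipoprotein particles. Pltp (ENSMUSG00000017754) lies at chr2:164839518-164857711 on the minus strand. Its CPM was 6.70, 7.11 and 7.32 in the W/O IL-10 libraries and 19.7, 18.2 and 19.3 in the W/ IL-10 libraries. These came from 164, 172 and 170 counts against 405, 409 and 440. Every W/ IL-10 library was far above every control, and the spread within a group was small (7.05 ± 0.317 against 19.0 ± 0.785 CPM, SD, n = 3). The fold change was 2.70 (log2 1.43, standard error 0.109, 95% interval 1.19 to 1.68, adjusted p = 0.000707, edgeR). Pltp passed under all 14 alternatives, with log2 fold changes of 1.39 to 1.53. Per kilobase of exon its level went from 2.75 to 7.43 CPM, from place 30 to place 21 of the 34 genes. The exons of Pltp overlap those of Ctsa on the opposite strand over 19.3% of their bases, and 10.8% of its stretches of 50 bases are shared with Ctsa. Ctsa, which encodes a lysosomal carboxypeptidase, was at 237 to 281 CPM W/O IL-10 and 302 to 311 CPM W/ IL-10, and did not pass (log2 fold change 0.26, adjusted p = 0.187, edgeR). Whether strand was used in counting is not given in the sources used here, and the part of Ctsa reads in the Pltp counts was not tested.

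The other 3 genes of transfer and efflux did not pass the test. Stard4 encodes a carrier that moves cholesterol between membranes inside the cell, and it had the highest level per kilobase of the 4. The CPM of Stard4 was 72.1, 83.0 and 91.7 W/O IL-10 and 94.3, 89.8 and 93.0 W/ IL-10. Its groups overlapped (log2 fold change 0.17, adjusted p = 0.450, edgeR). Abca1, the exporter of cholesterol and phospholipid to lipid-poor apolipoprotein, was among the least expressed genes of the 34 per kilobase. Abca1 was at 5.19, 5.67 and 4.26 CPM in the controls and 4.71, 4.396 and 5.39 CPM W/ IL-10. The 95% interval of its log2 fold change ran from -0.47 to 0.35, and that of Abcg1, which exports cholesterol to lipoprotein particles, from -0.49 to 0.20. Both estimates were slightly below 0 (-0.06 and -0.15), and that of Abca1 changed sign under some alternatives. The median log2 fold change of the 4 genes was 0.05, with 2 above and 2 below 0, and Pltp was the one gene of the 4 that passed. This median was 0.01 without W/O IL-10 replicate 1 and likewise when W/ IL-10 replicate 3 was left out, 0.10 without W/O IL-10 replicate 2 and 0.09 without W/ IL-10 replicate 2. With offsets for GC and length it was 0.03.

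**Figure D2:**
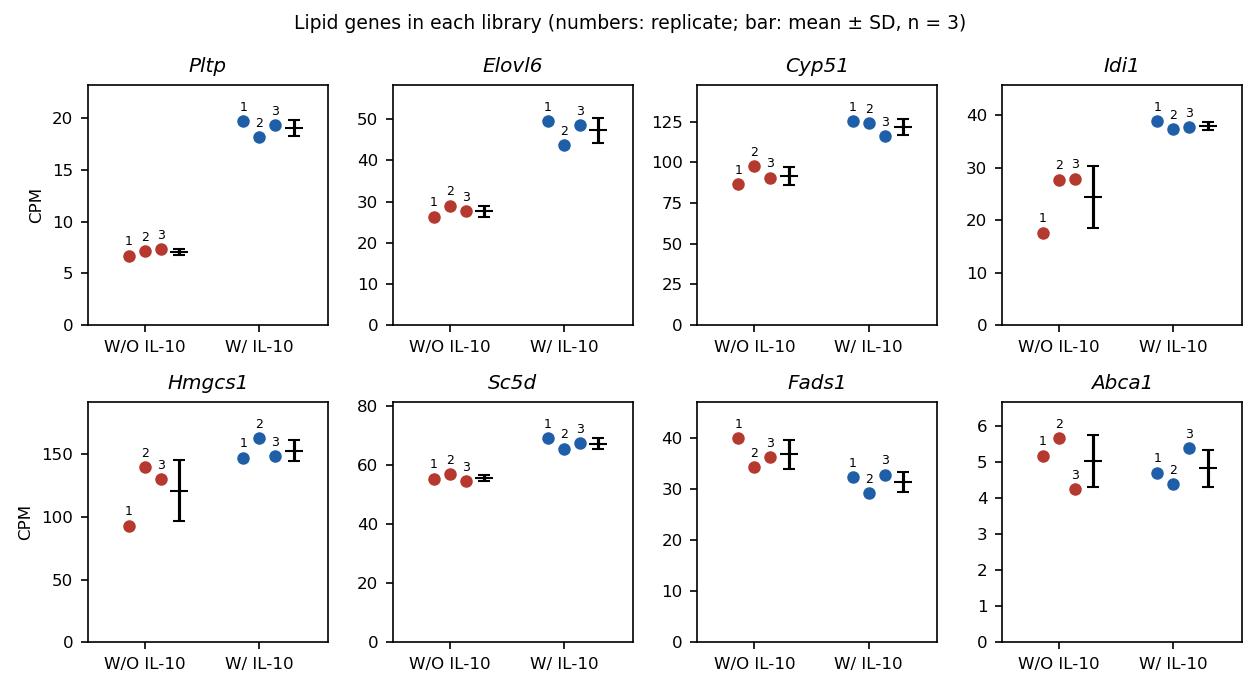
CPM of 8 of the genes in each library, with the replicate number beside each point and a bar for the mean and SD (n = 3). Pltp, Elovl6, Cyp51 and Sc5d separate by group with little spread, Idi1 and Hmgcs1 separate with W/O IL-10 replicate 1 well below the other controls, Fads1 is lower W/ IL-10, and Abca1 overlaps.

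In fatty acid synthesis, Elovl6 rose and the enzymes that make palmitate did not pass the test. Elovl6 (ENSMUSG00000041220, chr3:129532355-129638495, plus strand) encodes the elongase that turns palmitate into stearate. It was at 26.3, 29.0 and 27.6 CPM in the W/O IL-10 libraries and 49.5, 43.7 and 48.6 CPM in the W/ IL-10 libraries. The lowest value W/ IL-10 was well above the highest control. Its fold change was 1.71 (log2 0.77, standard error 0.088, 95% interval 0.58 to 0.97, adjusted p = 0.00474, edgeR). Elovl6 passed under 13 of the 14 alternatives and missed the threshold without W/ IL-10 replicate 3 (log2 fold change 0.75, adjusted p = 0.0540, edgeR). It passed when any other library was left out, and the cause of the miss was not tested. Its level per kilobase went from 4.30 to 7.35 CPM.

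Acly makes cytosolic acetyl-CoA from citrate, and it had the highest level of this group per kilobase. Acly was at 293, 307 and 331 CPM W/O IL-10 and 290, 312 and 321 CPM W/ IL-10. The groups overlapped almost fully, with a log2 fold change of -0.01 and a 95% interval of -0.20 to 0.17. Acaca encodes acetyl-CoA carboxylase, the step that commits acetyl-CoA to fatty acids. Its CPM was 54.4, 56.1 and 58.7 in the controls and 67.8, 61.8 and 72.0 W/ IL-10. The groups did not overlap, but the gene did not pass (log2 fold change 0.25, adjusted p = 0.180, edgeR), and 30.4% of its 50-base stretches are shared with other annotated transcripts. Fasn encodes fatty acid synthase, which builds palmitate. Its CPM was 205 to 252 W/O IL-10 and 231 to 261 W/ IL-10, and the groups overlapped (log2 fold change 0.09, adjusted p = 0.704, edgeR).

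The desaturases differed among themselves. Scd1 and Scd2 encode enzymes that put the first double bond into stearate and palmitate. Scd2 was the main form, at 45.4 and 51.0 CPM per kilobase W/O and W/ IL-10, against 2.78 and 2.91 for Scd1. The CPM of Scd2 was 234, 255 and 255 in the controls and 259.7, 272 and 305 W/ IL-10, without overlap (log2 fold change 0.17, adjusted p = 0.407, edgeR). Scd1 was at 8.70 CPM in W/O IL-10 replicate 1 and at 17.5 and 14.6 CPM in the other controls, with 13.5 to 15.1 CPM W/ IL-10. The interval of its log2 fold change was accordingly wide, from -0.44 to 0.57. Fads1 and Fads2, the delta-5 and delta-6 desaturases of polyunsaturated fatty acids, lie near each other on chromosome 19. Fads1 was at 39.96, 34.3 and 36.3 CPM W/O IL-10 and 32.4, 29.2 and 32.8 CPM W/ IL-10. Fads2, with the lowest level of the 8 genes per kilobase, was at 7.03, 6.33 and 6.85 CPM and 8.21, 8.44 and 9.16 CPM. Fads1 was thus below its controls and Fads2 above them, in every library, and neither passed the test (log2 fold changes -0.23 and 0.35, adjusted p = 0.308 and 0.253, edgeR). Both directions were kept under all 14 alternatives. The median log2 fold change over the 8 genes was 0.13. It was 0.06 without W/O IL-10 replicate 1, 0.08 without W/ IL-10 replicate 3, and 0.21 without W/O IL-10 replicate 2 or with offsets for GC and length.

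From squalene to cholesterol, 9 of 10 genes had a log2 fold change above 0 (51.2% of all tested genes did). In 6 of the 10 the groups did not overlap, all above the controls (11.3% of all tested genes), and 5 had an unadjusted p under 0.05, all higher (7.58% of all tested genes). The median was 0.19, and it ran from 0.134 to 0.212 with a library left out. Cyp51 passed the test. It encodes lanosterol 14-alpha demethylase, which acts on the sterol soon after its rings are closed (ENSMUSG00000001467, chr5:4081145-4104746, minus strand). The CPM of Cyp51 was 86.4, 97.5 and 90.5 in the W/O IL-10 libraries and 125, 124 and 116 in the W/ IL-10 libraries. The groups were well separated, though the fold change was modest at 1.33 (log2 0.41, standard error 0.0748, 95% interval 0.24 to 0.58, adjusted p = 0.0316, edgeR). This call was close to the threshold. Cyp51 passed under 8 of the 14 alternatives, and its adjusted p was 0.0906 to 0.129 (edgeR) when any library but W/O IL-10 replicate 1 was left out.

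The other enzymes of these steps showed smaller differences. Sc5d, the sterol C5-desaturase near the end of the pathway, was at 55.4, 57.0 and 54.7 CPM W/O IL-10 and 69.1, 65.6 and 67.5 CPM W/ IL-10. Its groups were tight and separate, and its log2 fold change of 0.27 had an adjusted p of 0.0867 (edgeR). Sqle, squalene epoxidase and a rate-limiting step, was at 65.4, 67.7 and 61.9 CPM in the controls and 71.2, 83.0 and 72.1 CPM W/ IL-10. Msmo1, which removes the methyl groups at C4, was at 62.1, 62.8 and 55.8 CPM and 77.9, 74.6 and 64.4 CPM. Both were above their controls in each library but did not pass (log2 fold changes 0.22 and 0.26, adjusted p = 0.269 and 0.224, edgeR). Hsd17b7, a ketosteroid reductase of the same C4 step and the least expressed of the 10 per kilobase W/O IL-10, was at 17.4, 22.7 and 22.8 CPM W/O IL-10 and 25.4, 25.7 and 28.5 CPM W/ IL-10. Nsdhl, the dehydrogenase of that step, was at 22.2, 21.2 and 19.6 CPM and 22.5, 22.4 and 23.3 CPM. The values of Nsdhl were thus separate by a narrow margin, with a log2 fold change of 0.12.

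The remaining 4 genes of these steps overlapped between groups. Ebp, the sterol isomerase, had the highest level per kilobase of the 10 in the controls and was at 60.9, 54.4 and 53.7 CPM W/O IL-10 and 60.3, 63.1 and 56.1 CPM W/ IL-10. Fdft1, squalene synthase, had a log2 fold change of 0.16, and 26.5% of its 50-base stretches are shared with other transcripts, those of Ctsb on the opposite strand included. Lss, which closes the sterol rings, and Dhcr7, which makes cholesterol from its last precursor, had log2 fold changes of 0.01 and -0.03, with 95% intervals of -0.18 to 0.20 and -0.26 to 0.19. The sign of each turned under 4 of the 14 alternatives.

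In the mevalonate pathway no gene passed the test, and 3 of 7 genes, Idi1, Hmgcs1 and Pmvk, were above their controls without overlap, where 11.3% of all tested genes were. The median log2 fold change of the 7 genes was 0.13, with 0.30 without W/ IL-10 replicate 1 and 0.23 with offsets for GC and length. Idi1 encodes the isomerase that makes the reactive isoprene unit (ENSMUSG00000058258, chr13:8885501-8892451, plus strand). Its CPM was 17.6, 27.8 and 27.9 W/O IL-10 and 38.9, 37.4 and 37.7 W/ IL-10. The treated libraries were close to each other, whereas W/O IL-10 replicate 1 was well below the other controls. The fold change was 1.56 (log2 0.64, standard error 0.163, 95% interval 0.27 to 1.01, adjusted p = 0.0963, edgeR). Without W/O IL-10 replicate 1 the difference was smaller and passed (log2 fold change 0.44, adjusted p = 0.0162, edgeR). Annotated transcripts of other genes share 25.3% of the 50-base stretches of Idi1.

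Hmgcs1, which acts after Acat2 at the start of the pathway, was its most expressed gene per kilobase. Hmgcs1 was at 93.3, 139.7 and 130.2 CPM in the W/O IL-10 libraries and 147, 163 and 149 CPM in the W/ IL-10 libraries. As with Idi1, W/O IL-10 replicate 1 was the lowest. The log2 fold change was 0.34 (adjusted p = 0.295, edgeR), and without that library it was 0.17, the lowest value of any alternative. Pmvk, which phosphorylates phosphomevalonate, was at 17.1, 16.2 and 16.6 CPM and 18.9, 23.4 and 17.6 CPM, and did not pass (log2 fold change 0.26, adjusted p = 0.371, edgeR). W/ IL-10 replicate 2 was the one that stood high.

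Acat2, which condenses acetyl-CoA, Mvk, mevalonate kinase, and Mvd, the decarboxylase of the pathway, overlapped between groups, with log2 fold changes of 0.12, 0.13 and -0.08. Acat2 shares 39.1% of its 50-base stretches with Acat3 and Tcp1, so that its counts are less certain. Fdps, farnesyl diphosphate synthase, was counted at 75, 37 and 42 reads in the controls and 38, 32 and 44 reads W/ IL-10. These are 3.06, 1.53 and 1.81 CPM against 1.85, 1.42 and 1.93 CPM, far below the neighbouring steps of the pathway. Per kilobase Fdps had 0.507 CPM W/O IL-10, where the other 6 genes of the pathway had 6.46 to 26.3. Other annotated transcripts share 26.2% of its 50-base stretches, and an overlapping gene on the same strand, Gm43738, covers 26.7% of its exon bases. Gm43738 itself had at most 2 counts in any library. The low Fdps value is therefore uncertain, and its log2 fold change (-0.30, 95% interval -1.02 to 0.42) was not distinguishable from 0.

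Of the 4 regulators, Srebf2, Nr1h2 and Srebf1 were among the most expressed of the 34 genes. Srebf2 ranked first in both groups, with 64.0 and 70.7 CPM per kilobase, and Srebf1 had 29.8 and 32.6. The CPM of Srebf2 was 435, 463 and 482 W/O IL-10 and 455, 524 and 544 W/ IL-10. The values overlapped in the lowest W/ IL-10 library (log2 fold change 0.14, adjusted p = 0.532, edgeR). Srebf1 was at 153, 175 and 174 CPM and 167, 193 and 191 CPM, again with overlap (log2 fold change 0.13, adjusted p = 0.541, edgeR). Both are factors activated by cleavage of their protein, which mRNA does not measure. Insig1, itself a target of SREBP and the least expressed of the 4 regulators per kilobase, was at 30.7, 36.4 and 32.4 CPM in the controls and 38.1, 39.3 and 42.6 CPM W/ IL-10. Its groups did not overlap, without passing the test (log2 fold change 0.27, adjusted p = 0.223, edgeR). Nr1h2 was at 143 to 154 CPM W/O IL-10 and 118 to 146 CPM W/ IL-10. The log2 fold change of Nr1h2 was -0.11 and turned its sign under 2 alternatives (adjusted p = 0.635 as reported, edgeR).

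Lpin1 encodes lipin 1, a phosphatase that makes diacylglycerol. It was at 69.1, 65.9 and 68.6 CPM W/O IL-10 and 61.9, 62.2 and 65.4 CPM W/ IL-10. All W/ IL-10 values were below the controls by a narrow margin (log2 fold change -0.10, adjusted p = 0.532, edgeR).

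**Figure D3:**
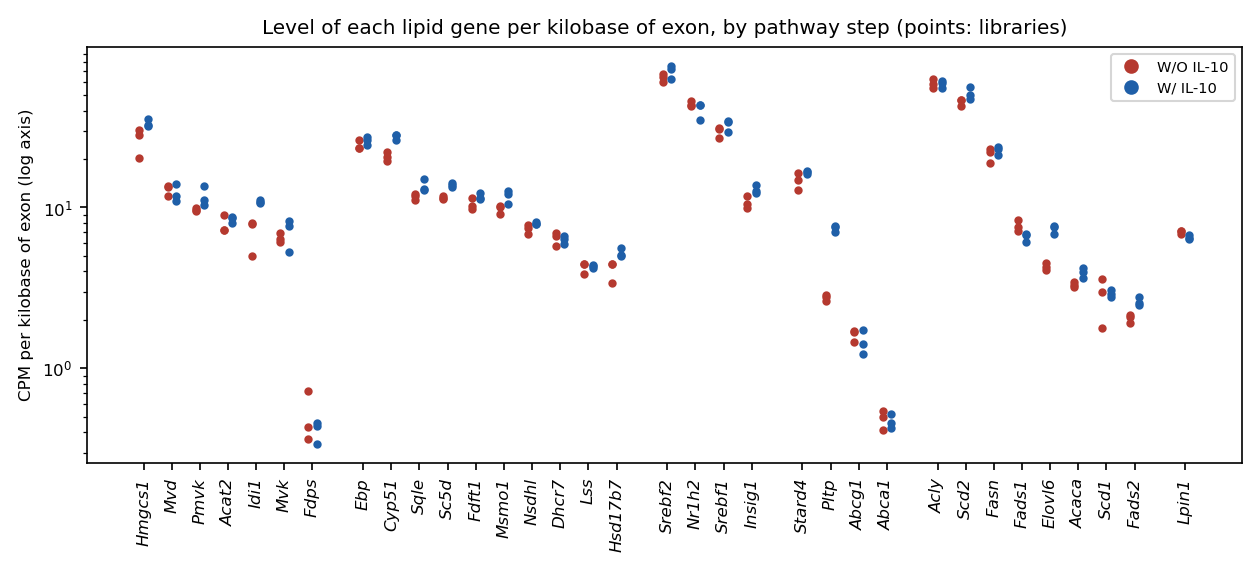
CPM per kilobase of exon (log axis) of each gene in each library, grouped by pathway step and ordered by level within a step. Srebf2, Acly, Scd2 and Nr1h2 are the highest in both groups, Fdps and Abca1 the lowest, and Pltp is the gene whose 2 groups of points lie furthest apart.

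Fold changes depended on the base composition of the transcripts. Over all tested genes, the median log2 fold change went from 0.47 for the 82 genes of up to 36% GC to -0.12 for the 493 with more than 60% GC. In the lowest of these bins the median deviation from the mean of the libraries was -0.96 (log2) in W/O IL-10 replicate 1 and 0.09 to 0.46 in the other 5 libraries. The 34 genes had a median GC content of 50.3%, close to that of all tested genes (49.7%), but those from squalene to cholesterol had 47.5% and the regulators 58.2%. Pltp has 57.6% GC, where the median gene was below 0, and Idi1 has 41.1%, where the median gene was above 0.

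Once offsets for GC and length had been fitted, the log2 fold change was 1.53 for Pltp (adjusted p = 0.000138), 0.74 for Elovl6 (adjusted p = 0.000819) and 0.38 for Cyp51 (adjusted p = 0.00981), all by edgeR, and each still passed. Idi1 had 0.46 and passed as well (adjusted p = 0.0260, edgeR). Sc5d went from 0.27 to 0.19, Hmgcs1 from 0.34 to 0.25, Srebf1 from 0.13 to 0.25 and Srebf2 from 0.14 to 0.25, and none of these 4 passed in this fit. With a block for replicate number added to these offsets, Hmgcs1, Srebf1 and Srebf2 passed and Sc5d did not. The median of the 34 genes was 0.19 with these offsets.

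**Figure D4:**
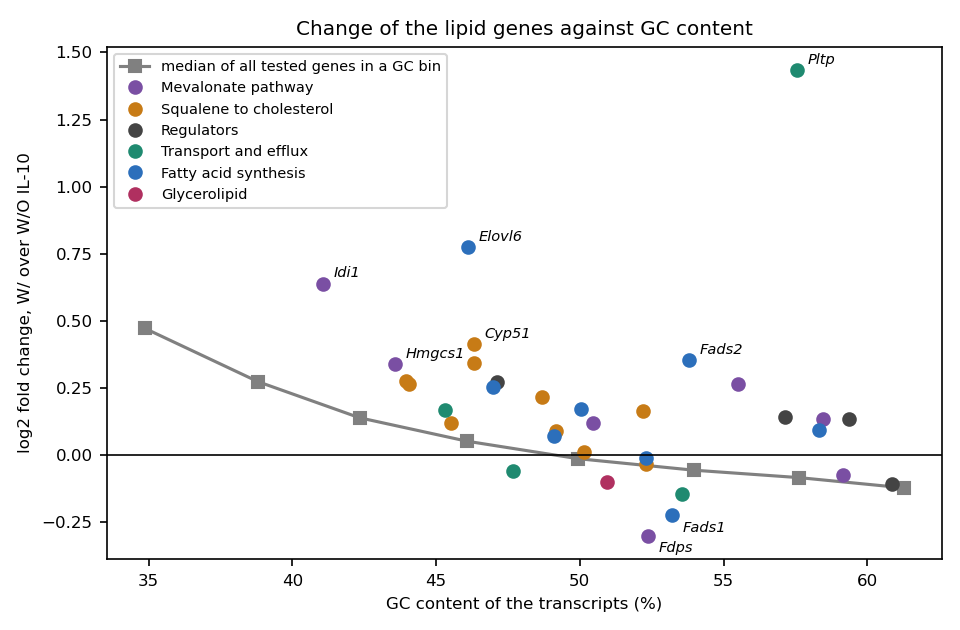
Log2 fold change of each of the 34 genes against the GC content of its transcripts in percent, with the median of all tested genes in 8 GC bins as the grey line. The grey line falls from 0.47 to -0.12, and Pltp, Elovl6, Idi1 and Cyp51 lie above it at their own GC content.

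**Figure D5:**
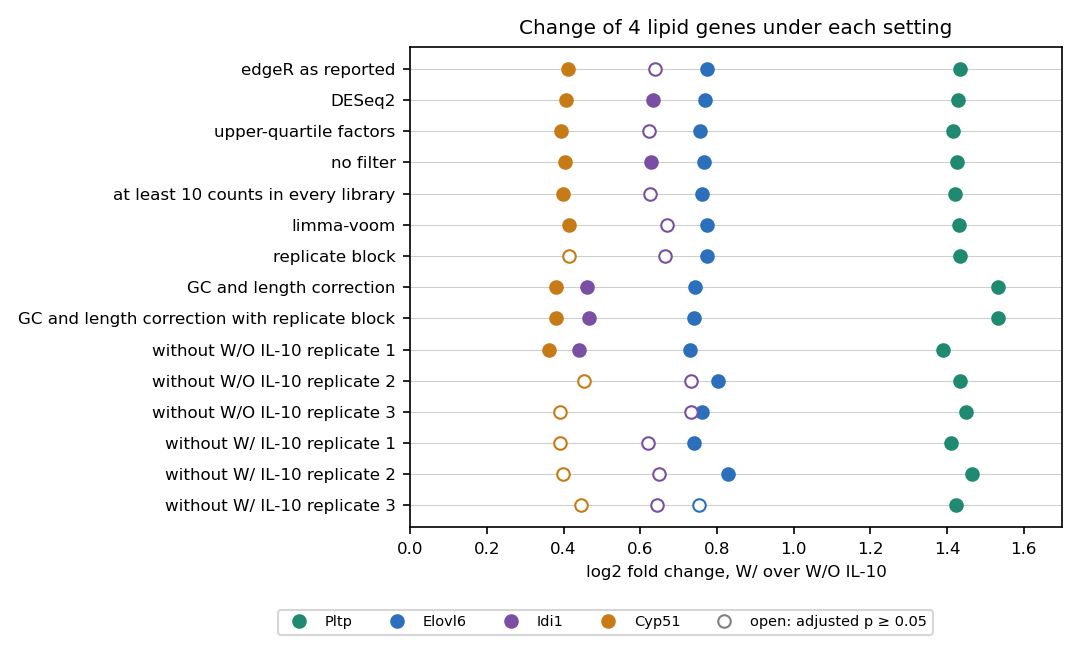
Log2 fold change of Pltp, Elovl6, Idi1 and Cyp51 as reported and under each of the 14 alternatives, with open circles where the adjusted p is 0.05 or more. Pltp is filled throughout, Elovl6 is open without W/ IL-10 replicate 3, and Cyp51 and Idi1 change between filled and open with their log2 fold changes between 0.36 and 0.45 and between 0.44 and 0.73.

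Other genes of lipid metabolism were read from the same fit, on lists of 66 genes of which 64 were tested. Over all tested genes, 1.21% passed higher and 0.979% lower, 7.58% and 7.17% had an unadjusted p under 0.05 above and below 0, and 51.2% had a log2 fold change above 0. Of the 17 other genes of sterol handling none passed, 7 had a log2 fold change above 0 and the median was -0.02. Of 19 tested genes of fatty acid activation, elongation and esterification none passed, 2 had an unadjusted p under 0.05 above 0 and 3 below it, and the median was 0.09. Of 17 genes of fatty acid oxidation 1 passed, and the median was 0.01. Of 11 tested genes of lipid uptake and storage none passed, 3 had an unadjusted p under 0.05, all below 0, and the median was -0.06. These 3 were Slc27a1, Plin2 and Cd36, named after their values were seen. Cd36 had 116 counts in W/O IL-10 replicate 1 and 8 to 24 in the other libraries, and its log2 fold change was -1.99 with that library and -0.51 without it.

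Acadl, the long-chain acyl-CoA dehydrogenase of mitochondrial fatty acid oxidation, was the gene that passed. It was at 175, 179.9 and 178 CPM W/O IL-10 and 227, 236 and 237 CPM W/ IL-10. The groups were tight and apart (log2 fold change 0.39, standard error 0.0668, adjusted p = 0.0247, edgeR). The call was lost when any library but W/O IL-10 replicate 1 was left out (adjusted p = 0.0779 to 0.138, edgeR). Acacb, the mitochondrial acetyl-CoA carboxylase whose product restrains that oxidation, was low throughout, at 2.57, 2.03 and 1.33 CPM in the controls and 0.729, 0.711 and 1.10 CPM W/ IL-10. It was below its controls in every library and did not pass (log2 fold change -1.22, adjusted p = 0.130, edgeR). Etfb, a subunit of the electron carrier that takes electrons from these dehydrogenases, was at 2.12, 1.696 and 1.68 CPM and 3.01, 2.84 and 2.63 CPM, also without passing (log2 fold change 0.62, adjusted p = 0.232, edgeR). Other genes on the same strand cover 58.2% of its exon bases, so that its counts are uncertain.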

How the data were processed

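RNA of 6 libraries of cDNT, 3 in each group, was sequenced. The authors deposited a table of whole-number counts per gene without normalization, with 29393 Ensembl genes. The study's methods name TopHat, Cufflinks and UCSC annotation, whereas the submitters' processing notes name HISAT2, HTSeq and GRCm38, with no versions. Which made the counts, and whether strand was used, is not given in the sources used here. The labels name a TruSeq kit and the methods a NEBNext kit. The design text speaks of duplicates, and the table holds 3 libraries per group. All value columns were used.

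TMM factors and the test came from edgeR 4.0.16 in R 4.3.3. It ran the quasi-likelihood test for 14916 genes, those with 10 counts or more in 3 or more libraries, with all 6 libraries and no covariate. Standard errors were taken from the log2 fold change and the F statistic. A gene passed at a Benjamini-Hochberg adjusted p under 0.05 over all tested genes. CPM used library sizes scaled by TMM, and CPM per kilobase used the union of exons. Symbols, GC content, length and overlaps came from GENCODE M21 (GRCm38), which held 29332 of the genes, and windows before gene starts from RefSeq. The fit was tested on simulated counts. Alternatives were DESeq2 1.42.0, limma-voom (limma 3.58.1), upper-quartile factors, no filter, 10 counts in every library, a replicate block, spline offsets (5 degrees of freedom) for GC content and length with and without that block, and leaving out each library. Per-library values are given for genes that passed or did not overlap and for the highest and lowest gene of each step. Genes of the other lists are named where they passed, or did not overlap with a fold change of 1.5 or more. The 34 genes, the other lists and these rules were chosen with earlier results of these data known.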

Additional observations from a re-analysis of the deposited data

How the results depend on the processing

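Pltp passed under all 14 alternatives, Elovl6 under 13, Cyp51 under 8 and Idi1 under 5. Of the 34 log2 fold changes over the 14 alternatives, 459 comparisons of 476 kept their side of the threshold, 10 newly passed, 7 no longer passed, and no called value changed sign. The signs of 9 genes that were not called turned under at least 1 alternative.

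Over all genes, 181 were higher, 146 lower and 217 past 1.5-fold. DESeq2 gave 385, 311 and 359, no filter 714, 525 and 637, and the GC and length correction 359 higher. Leaving out 1 library gave 31 to 298 higher, 4 to 227 lower and 35 to 254 past 1.5-fold, and each of these fits had fewer libraries. The highest of each count came without W/O IL-10 replicate 1 and was above the count as reported. Of the 34 genes, 3 were higher as reported, 5 without a filter, and 1 to 4 with a library left out (1 to 2 past 1.5-fold, from 2). Of the other lipid genes, 1 was higher as reported, 2 under DESeq2, no filter and the GC correction, and 0 to 1 with a library left out, and 3 were lower without a filter (0 as reported).

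The median log2 fold change of the 34 genes was 0.14 as reported, 0.19 with the GC correction and 0.12 to 0.19 with a library left out. That of the mevalonate genes was 0.0925 to 0.301 with a library left out (the highest without W/ IL-10 replicate 1), and Lpin1 had -0.045 with the GC correction. The order of the groups by median turned: the genes from squalene to cholesterol were highest as reported (0.19), but had 0.18 with the GC correction, against 0.25 for the regulators, 0.23 for the mevalonate genes and 0.21 for fatty acid synthesis. The regulators ranged from 0.0788 to 0.206 with a library left out (0.137 as reported, the lowest without W/O IL-10 replicate 1). The cause was not tested.

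Same-numbered libraries did not deviate together (correlations 0.05, -0.06 and 0.11), and the numbers were not taken to pair them. These correlations were taken without the GC correction, so a pairing hidden by the GC trend would not show in them. With the replicate block, 2 of the 34 genes were higher and Cyp51 had an adjusted p of 0.0542 (edgeR). With the GC and length correction alone, 359 genes were higher and 218 lower, and 4 of the 34 genes were higher. With the correction and the block together, 606 genes were higher, 346 lower and 353 past 1.5-fold. In that fit 8 of the 34 genes and 2 other lipid genes were higher, the median was 0.19, and Lpin1 had -0.0451. The 8 genes were Pltp, Elovl6, Cyp51, Idi1, Hmgcs1, Acaca, Srebf1 and Srebf2. Acaca, Srebf1 and Srebf2 passed in that fit alone (adjusted p = 0.0320, 0.0422 and 0.0382, edgeR). The cause of this rise was not tested.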

Other observations

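Some genes of lipid uptake were seen mainly in 1 library. They were chosen after their values were seen. Lpl, which encodes lipoprotein lipase, had 302 counts in W/O IL-10 replicate 1, 0 and 2 counts in the other controls, and 2, 8 and 1 counts in the W/ IL-10 libraries. Cd36, a fatty acid translocase and scavenger receptor, had 116, 24 and 11 counts W/O IL-10 and 16, 10 and 8 counts W/ IL-10. Fabp4, a fatty acid carrier, had 120, 0 and 0 counts and 2, 0 and 1 counts. Mmp12, a macrophage elastase, followed the same pattern with 106, 10 and 8 counts against 8, 11 and 18, and Lyz2 had 88, 24 and 17 counts against 27, 18 and 31. The macrophage markers were mixed in this. In the controls Adgre1 had 66, 41 and 20 counts and Cd14 had 111, 81 and 73. Cd68, with 565, 493 and 527 counts, and Itgam, with 25, 22 and 33, did not stand out in replicate 1. Csf1r was low in all 3, with 8, 7 and 5 counts. Ccl22 had 514, 230 and 137 counts W/O IL-10 and 78, 40 and 6 W/ IL-10. Adipoq and Plin1, which mark adipocytes, had no more than 2 counts in any library. Among the lipid genes above, W/O IL-10 replicate 1 was the lowest control for some, such as Idi1, Hmgcs1, Hsd17b7 and Scd1. It was the highest control for others, such as Fdps, Acat2, Ebp and Fads1. A link between these values and the counts of the uptake genes was not tested.

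Soat1, which esterifies cholesterol for storage, came nearest to the threshold among the other lipid genes that did not pass, and was also chosen after its values were seen. It was at 62.8, 68.2 and 65.8 CPM W/O IL-10 and 91.2, 77.7 and 82.5 CPM W/ IL-10, without overlap (log2 fold change 0.35, adjusted p = 0.0700, edgeR), and it passed under DESeq2, without a filter and with the GC correction.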
